A study of Mus musculus with 4 samples.

Results

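The genes described here are 37 chaperone and chaperonin genes, out of 45706 genes in a count table from mouse embryonic stem cells. They were taken from a fixed list of symbols, matched to the table's Ensembl identifiers, and all 37 were found. The list holds 2 heat shock factors (HSF), 9 HSP70 genes, 3 HSP90 genes, 5 HSP40 (J-domain) genes, 1 small heat shock protein gene, 4 mitochondrial chaperone genes, 5 genes of BAG proteins and HSP90 co-chaperones, and the 8 subunit genes of the cytosolic chaperonin CCT.

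Chaperones bind proteins that are not yet folded or have lost their fold. HSP70 proteins hold short exposed stretches of a client in a cycle driven by ATP, J-domain proteins bring clients and speed up that cycle, and nucleotide exchange factors such as BAG proteins release the client. HSP90 acts later, on partly folded kinases and receptors, while CCT is a closed double ring that folds actin and tubulin, and HSF1 is the factor that induces many of these genes after heat or protein damage.

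Polyadenylated RNA was sequenced from V6.5 cells, an embryonic stem cell line, in 2 libraries collected 24 h after doxycycline was added (24 h A and B) and in 2 libraries of uninduced cells (0 h A and B). All 4 libraries are titled TKO and were described as carrying a lentiviral construct in which doxycycline drives Cas9, with guides that target either Klf4 or the trio of Klf2, Klf4 and Klf5. Clones were picked by hand, and which clone each library came from is not stated. Whether the 24 h cells carried guides against KLF4 alone or against the trio is uncertain, since the titles give both TKO and KLF4. The 24 h libraries are labelled KLF KO, with a KLF4 knockout named in their titles, and the 0 h libraries are labelled KLF WT. Cells of both groups grew on irradiated feeder cells in medium with 15% serum, 1000 U/ml LIF and the 2i inhibitors, against MEK at 1 µM and against GSK3 at 3 µM. The comparison asks which transcripts differ after 24 h of induction. The drug, cutting by Cas9, any loss of KLF proteins and time in culture cannot be told apart here.

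Totals were 48599693 and 46031578 counts at 24 h, against 52412844 and 48838606 counts at 0 h. The transcripts of the targeted genes were still present at 24 h and none was past edgeR's test, with Klf5 closest (adjusted p = 0.0567). Klf4 had 244.4 and 235.7 CPM (counts relative to the TMM-scaled library size) at 24 h, against 331.4 and 257.0 CPM at 0 h. Klf5 had 225.9 and 215.6 CPM at 24 h, against 430.9 and 294.3 CPM at 0 h, and Klf2 had 147.3 and 152.5 CPM at 24 h, against 231.9 and 123.5 CPM at 0 h. The 0 h libraries differed more from each other than the 24 h libraries did. The SD of log2 differences between replicates over all genes tested was 0.361 in the 24 h pair, against 0.494 in the 0 h pair. Set against counting error alone, chi-square per degree of freedom was 4.3 in the 24 h pair, against 64.1 in the 0 h pair. The libraries were also uneven in a trend with gene GC content. The deviation of a library from the mean of all 4 correlated with GC content at r = -0.156 and -0.214 in 24 h A and B, against 0.463 and -0.183 in 0 h A and B (Pearson, across 17927 genes). Markers of embryonic stem cells summed to 4270.3 and 4314.0 CPM at 24 h, against 4839.0 and 4696.6 CPM at 0 h, with 3 of 10 lower (Pou5f1, Zfp42 and Utf1). Feeder fibroblast markers summed to 292.16 and 284.05 CPM at 24 h, against 317.15 and 249.32 CPM at 0 h, with 1 of 15 tested lower (Pdgfrb). Of all genes tested, edgeR's test called 2.65% lower and 4.15% higher at an adjusted p under 0.05. Fibroblast RNA was present in every library, with 2898 to 4557 counts of Col1a1 and 2801 to 3768 of Fstl1, while Lum had 0 to 4 counts, Fap 0 to 2 and Dcn 2 to 6 per library. The part of feeder RNA in the changes described here was not tested. In bulk RNA, fewer cells of a type and less RNA per cell cannot be told apart.

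Most chaperone genes had small fitted changes after 24 h of induction, and 2 of them fell. Hspa8, the constitutive cytosolic HSP70, fell by 44.4%, and Dnajb6, a J-domain protein known for keeping aggregation-prone proteins soluble, fell by 40.8%. None rose. Over all 18005 genes tested, the quasi-likelihood test of edgeR (Benjamini-Hochberg adjusted, threshold 0.05) called 4.15% higher and 2.65% lower, and both directions together came to 6.8%. The other 35 chaperone genes did not pass, which does not show that they were unchanged. With the trend in GC content and transcript length removed, 21 of the 37 were lower, beside 18.8% of all genes tested. Without that removal, the DESeq2 Wald test and limma voom each called 0 higher and 2 lower, again Hspa8 and Dnajb6. The median log2 fold change of the 37 was -0.116, beside -0.007 over all genes tested, and it was -0.11 without Hspa8 and Dnajb6. Of the 37 changes 28 were negative and 9 positive, and 29 of the 37 (78.4%) lay within 0.3 of 0 on the log2 scale, as did 56.2% of all genes tested. At an unadjusted p under 0.05 there were 9 chaperone genes, all lower, beside 12.6% of all genes lower and 13.2% higher at that p. Both 24 h libraries lay below both 0 h libraries for 17 chaperone genes and above them for 5, and the groups overlapped for 15. Over all genes tested those shares were 29.5% below and 29.3% above.

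**Figure D1:**
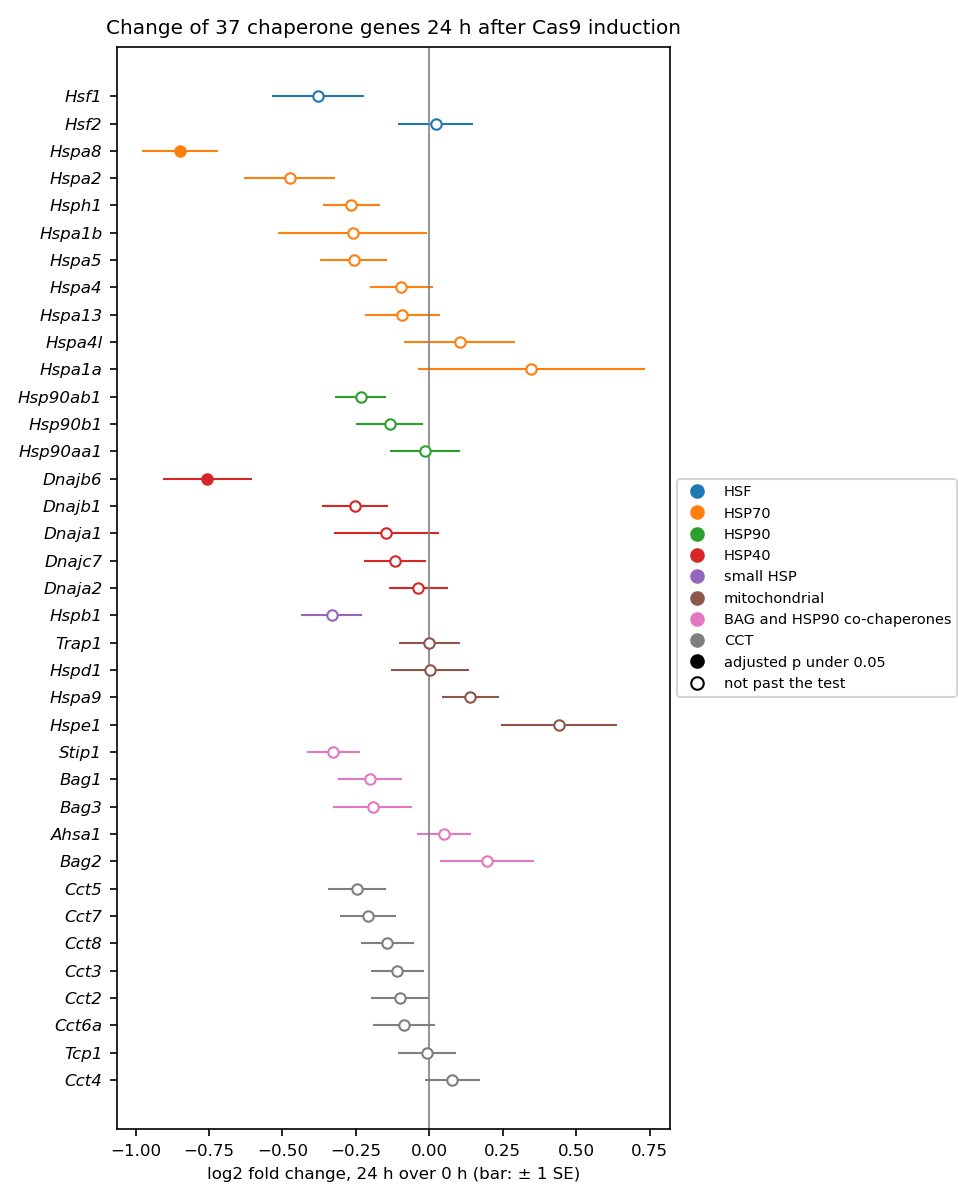
Log2 fold change of each of the 37 chaperone genes, 24 h over 0 h, with bars of 1 SE from the edgeR fit to 2 libraries per group. Colours mark the groups and filled points an adjusted p under 0.05. Hspa8 and Dnajb6 lie farthest to the left, and only these 2 are filled, while Hspe1 lies farthest to the right.

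Summed, the chaperone transcripts made up 21714.4 and 22216.5 CPM at 24 h, against 24254.2 and 24700.0 CPM at 0 h. Both 24 h sums were below both 0 h sums. The mean difference was -2509.8 CPM, to which Hsp90ab1 gave -1337 CPM, Hspa8 -329.1 CPM and Stip1 -195.5 CPM. Hsp90ab1, the constitutive cytosolic HSP90, was also the highest of the 37 per length, at 2532 RPKM at 24 h and 2978 RPKM at 0 h (means; RPKM is CPM per kilobase of merged exons). Next in order at 0 h came Stip1 at 457.9 RPKM, Cct2 at 367.8 RPKM, Hsp90aa1 at 309.4 RPKM and Hspa9 at 288.7 RPKM. This order depends on the length used. Per kilobase of the principal transcript, where annotated, it was Cct2 (480.0 CPM), Stip1 (457.9 CPM), Hspa9 (408.0 CPM) and Cct5 (402.7 CPM). The lowest were Hspa1a at 0.2013 RPKM, Hspa4l at 0.4801 RPKM and Hspa1b at 0.6384 RPKM. At 0 h, 24 of the 37 stood in the top 5% of genes tested by level per length.

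**Figure D2:**
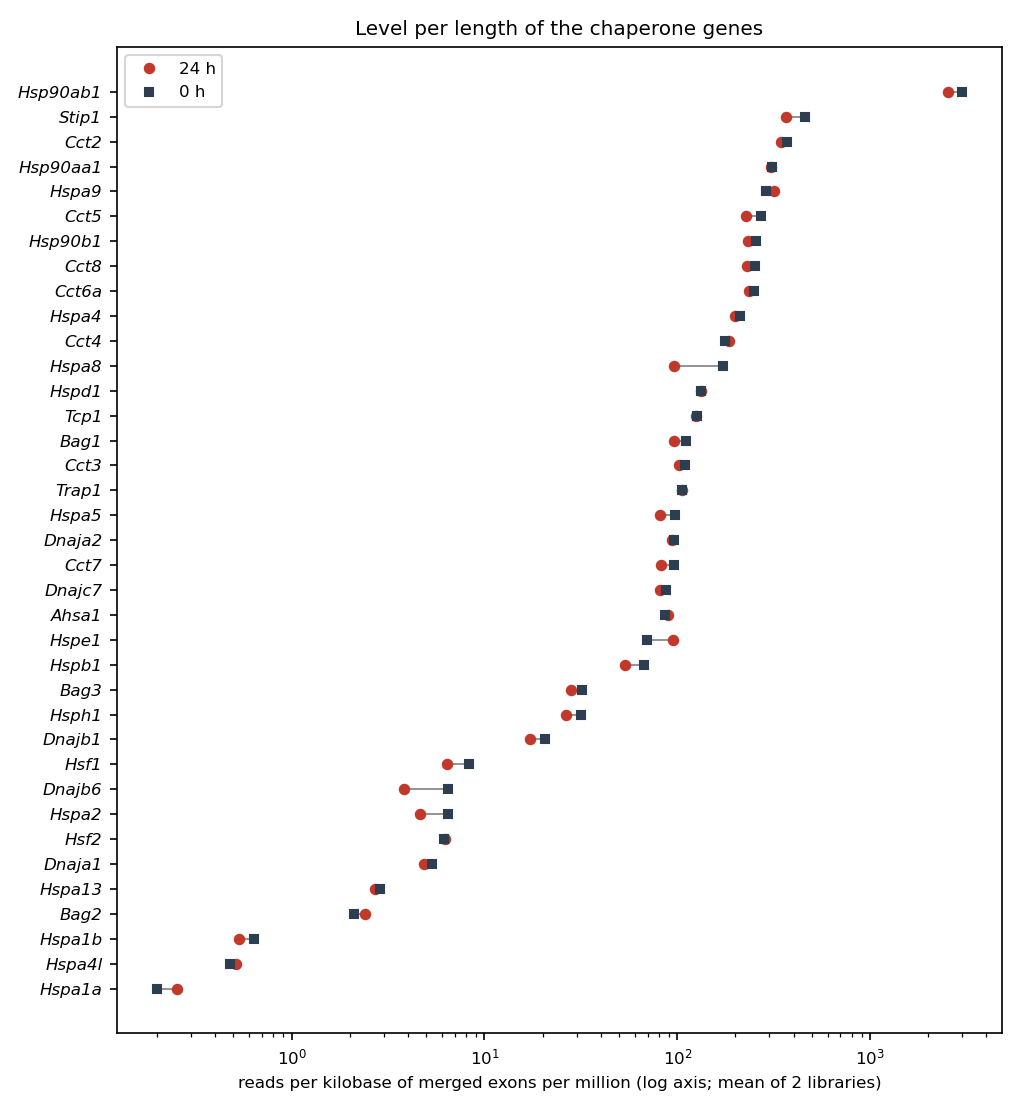
Mean level per length of each chaperone gene (RPKM on merged exons, log axis) at 24 h (circles) and 0 h (squares), 2 libraries each, ordered by the 0 h level. Hsp90ab1 stands alone at the top, the stress-inducible Hspa1a and Hspa1b lie at the bottom, and Hspa8 and Dnajb6 show the widest gaps between circle and square.

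The number of chaperone genes called depended on the libraries in the fit. Where 1 library is left out, its partner is taken to vary as the other group does. Calls without a 0 h library therefore rest on the smaller spread of the 24 h pair. Without 24 h A, 0 were called higher and 1 lower (1.97% and 1.05% of all genes tested), and without 24 h B also 0 and 1 (1.81% and 0.899%). Without 0 h A, 1 was called higher and 21 lower (16.5% and 15.8% of all genes), and without 0 h B 6 were higher and 16 lower (23.2% and 27.0%). With no filter on low counts, 0 were higher and 4 lower (4.61% and 5.1%). With the trend in GC content and transcript length removed, 0 were higher and 21 lower (10.3% and 18.8% of all genes). The median of the 37 was -0.205 with this trend removed, and with 1 library left out it ranged from -0.161 (without 0 h A) to -0.041 (without 0 h B). Among the chaperone genes, the difference between 0 h A and 0 h B was larger than that between 24 h A and 24 h B for 35 of 37, and 15 were higher and 22 lower in 0 h A than in 0 h B. Across the 37 genes, which share the same libraries, GC content correlated with the log2 ratio of 0 h A to 0 h B at r = 0.451 and with that of 24 h A to 24 h B at r = -0.215. What part this had in single changes was not tested.

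**Figure D3:**
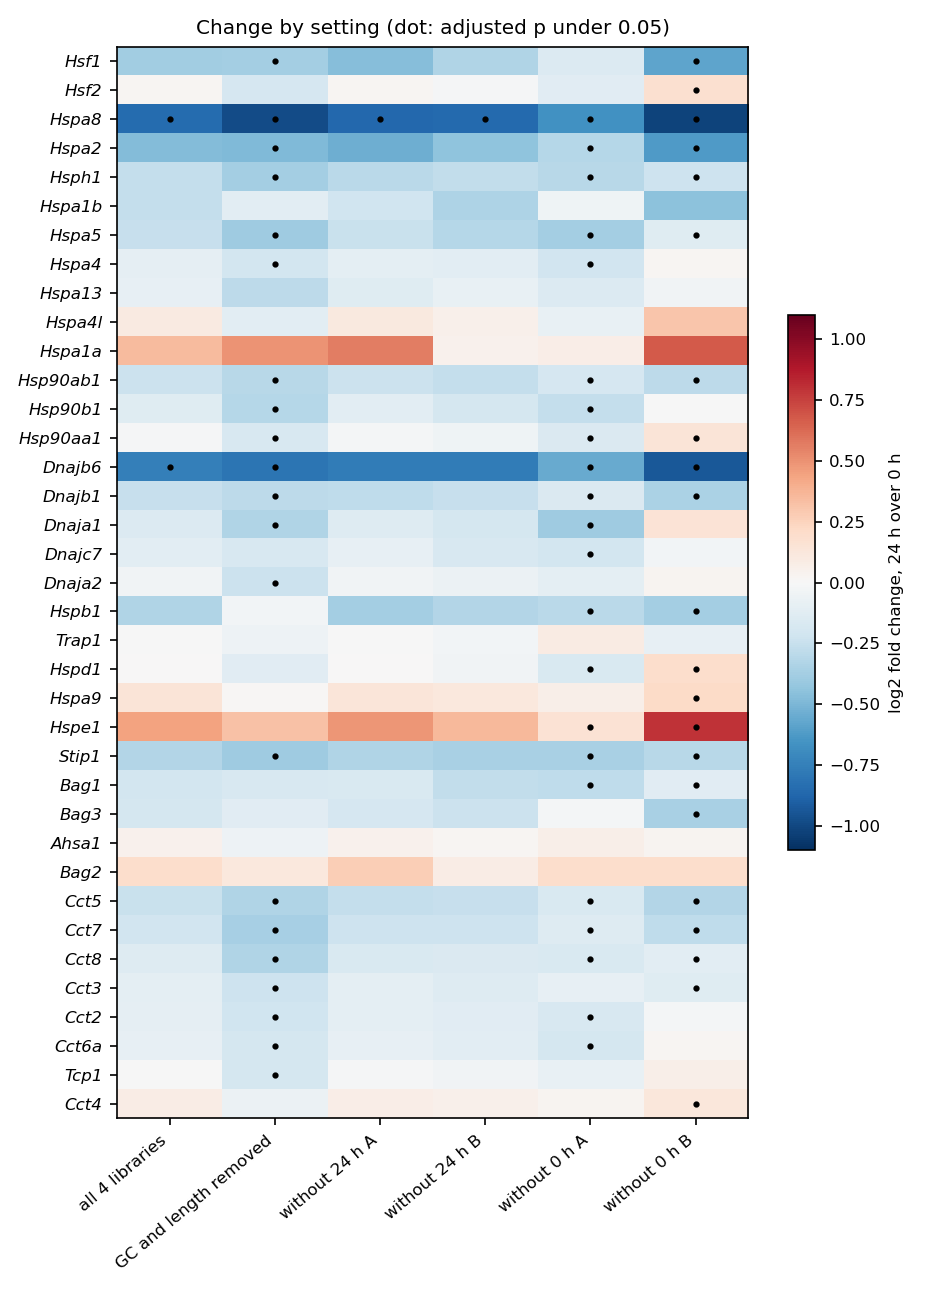
Log2 fold change (24 h over 0 h, colour scale) of each chaperone gene in the fit to all 4 libraries, with the GC and length trend removed, and without each library in turn; dots mark an adjusted p under 0.05. Hspa8 is dark blue and dotted in every column, Dnajb6 loses its dot without either 24 h library, and Hsp90aa1 and Hspd1 have dots with opposite colours in the 2 columns that leave out a 0 h library.

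Heat shock factors bind the heat shock element, which is built of GAA units in alternating orientation. RefSeq promoter windows (GRCm38.p6, 250 bases before to 50 after a start) were at hand for 30 of the 37 genes, in 39 windows of 32851 in the table. Hsf1, Hspa8, Hspa9, Hspa13, Hsp90aa1, Hsp90ab1 and Cct4 were not searched. An element of 3 units, searched as GAANNTTCNNGAA or TTCNNGAANNTTC so that both strands are covered, was in 0.603% of all windows. It was in 6 of the 39 windows of chaperone genes (15.4%), from the 4 genes Dnajb6, Hspd1, Hspe1 and Hsph1. An element of 2 units (GAANNTTC or TTCNNGAA, each the same on both strands and contained in the longer one) was in 15.1% of all windows. It was in 14 of the 39 windows of chaperone genes (35.9%), from 12 genes. Windows of Dnajb6, Hspe1 and Hsph1 are shown as those with the longer element, and those of Hspa1a and Hspa1b as the stress-inducible pair. For Dnajb6 and Hsph1 the first of 2 overlapping windows is given. Capitals mark heat shock elements and, at the left of the Hspa1a and Hspa1b windows, a match to the KLF motif (GGGNGTGG or its complement CCACNCCC).
Dnajb6, chr5:29735648-29735947, plus strand: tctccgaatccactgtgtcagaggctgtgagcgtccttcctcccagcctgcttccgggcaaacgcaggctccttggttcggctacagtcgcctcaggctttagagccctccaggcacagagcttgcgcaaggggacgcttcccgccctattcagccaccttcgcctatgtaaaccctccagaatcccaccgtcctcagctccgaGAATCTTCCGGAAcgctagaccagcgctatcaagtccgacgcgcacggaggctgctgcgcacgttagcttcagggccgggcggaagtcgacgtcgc
Hspe1, chr1:55087898-55088197, plus strand: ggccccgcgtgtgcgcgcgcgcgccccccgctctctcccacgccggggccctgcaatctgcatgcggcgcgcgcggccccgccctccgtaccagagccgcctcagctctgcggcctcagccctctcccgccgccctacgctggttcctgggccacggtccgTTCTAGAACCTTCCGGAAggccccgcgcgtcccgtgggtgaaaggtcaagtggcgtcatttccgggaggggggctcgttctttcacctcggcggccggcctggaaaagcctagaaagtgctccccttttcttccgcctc
Hsph1, chr5:149636287-149636586, minus strand: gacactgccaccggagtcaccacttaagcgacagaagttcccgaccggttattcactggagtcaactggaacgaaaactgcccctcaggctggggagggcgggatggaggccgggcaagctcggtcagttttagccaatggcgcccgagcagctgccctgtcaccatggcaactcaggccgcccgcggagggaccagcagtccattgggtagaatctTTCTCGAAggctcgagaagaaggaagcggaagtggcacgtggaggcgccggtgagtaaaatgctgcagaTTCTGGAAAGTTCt
Hspa1a, chr17:34972107-34972406, minus strand: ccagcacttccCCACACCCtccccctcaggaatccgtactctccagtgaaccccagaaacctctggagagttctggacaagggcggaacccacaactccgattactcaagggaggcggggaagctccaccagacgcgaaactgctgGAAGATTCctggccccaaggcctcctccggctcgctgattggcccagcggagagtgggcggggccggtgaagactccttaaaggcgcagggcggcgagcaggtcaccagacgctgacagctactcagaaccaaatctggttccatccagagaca
Hspa1b, chr17:34959189-34959488, minus strand: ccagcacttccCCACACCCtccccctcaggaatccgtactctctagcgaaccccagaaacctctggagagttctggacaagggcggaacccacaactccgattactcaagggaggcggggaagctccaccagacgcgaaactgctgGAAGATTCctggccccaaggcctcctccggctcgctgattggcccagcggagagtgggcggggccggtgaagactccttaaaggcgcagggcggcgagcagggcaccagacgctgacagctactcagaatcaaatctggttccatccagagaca

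The element of Dnajb6, which fell, began 46 bases before the start of the window shown and 127 before that of the other window. Hspd1, Hspe1 and Hsph1, which also hold the longer element, did not pass in the fit to all 4 libraries with no replicate term. The windows of Hspe1 and Hspd1, genes that face away from each other, overlap on chromosome 1, and the longer element lies in the shared stretch. In the Hspe1 window it began 89 bases before the start and ran over 4 units, since the matches at -89 and -84 overlap. In Hsph1 the element of 3 units began 37 bases after the start, and an element of 2 units began 33 bases before the start. The Hspa1a and Hspa1b windows had the same base at 296 of 300 positions (98.7%), with an element of 2 units at -104 and the KLF match at -239 in both. The KLF motif was in 17.6% of all windows and in 9 of the 39 windows of chaperone genes (23.1%). These were windows of 9 genes, Bag1, Bag2, Cct5, Cct6a, Dnaja1, Dnajb1, Hsp90b1, Hspa1a and Hspa1b. None of these 9 passed the test with all 4 libraries, beside 6.8% of all genes tested, and Hspa8 was not among the genes searched. With the GC and length trend removed, Hsp90b1, Cct5, Dnajb1, Cct6a and Dnaja1 were lower, and the rest of the 9 did not pass. Of all genes tested, 18.8% were then lower and 10.3% higher. The ER stress element (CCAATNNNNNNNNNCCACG or its complement) was in 0.119% of all windows and in 2 of the 39 windows of chaperone genes (5.13%). These were windows of Hspa5 and Hsp90b1, both of the endoplasmic reticulum. A CCAAT box (CCAAT or ATTGG, also the first letters of the ER stress element) was in 37.4% of all windows. It was in 18 of the 39 windows of chaperone genes (46.2%), from 16 genes. A TATA box (TATAAA or TTTATA) was in 13.6% of all windows and in 1 of the 39 (2.56%), that of Stip1. A match is a description of these letters, not evidence of a bound site.

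Neither heat shock factor passed the test. Hsf1 had 47.6 and 43.47 CPM at 24 h, against 67.9 and 50.66 CPM at 0 h. Both 24 h libraries were below both 0 h libraries, with a log2 fold change of -0.38 (SE 0.16, edgeR adjusted p = 0.183). The 0 h libraries differed here, and without 0 h A the value was -0.15, against -0.58 without 0 h B. Hsf2, which can form trimers with HSF1, had 59.05 and 60.86 CPM at 24 h, against 53.05 and 65.12 CPM at 0 h, and the groups overlapped.

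Hspa8 carried the largest change of the HSP70 genes and of all 37. This gene (ENSMUSG00000015656, chr9:40800984-40810087, GRCm38) encodes HSC70, which folds new proteins, strips clathrin from vesicles and delivers proteins to lysosomes. It had 412.4 and 410.7 CPM at 24 h, against 830.5 and 650.8 CPM at 0 h. The 24 h libraries were nearly equal and both far below the 0 h pair, of which 0 h A was the higher. Means were 411.5 ± 1.18 CPM at 24 h and 740.6 ± 127 CPM at 0 h (SD, n = 2 each). The log2 fold change was -0.85 (SE 0.13), and the adjusted p from edgeR was 0.0157. It stayed past the test in all 14 alternative settings, and its size went from -0.66 without 0 h A to -1.02 without 0 h B. Per length it stood at 95.69 RPKM at 24 h and 172.2 RPKM at 0 h.

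Hspa8 has many near-identical copies in the mouse genome. Of the runs of 50 bases (the read length) in its longest transcript, 52.7% also occur in transcripts of other genes. Copies were taken here as genes in the table that hold at least 1% of these runs and whose exons do not overlap Hspa8. The 8 copies, 7 of them annotated as pseudogenes, together had 46.7 and 44.8 CPM at 24 h, against 93.2 and 73.6 CPM at 0 h. The copies thus made up 10.2 and 9.83% of the sum of gene and copies at 24 h, against 10.1 and 10.2% at 0 h. Gene and copies together gave a log2 ratio of mean CPM of -0.85, the same as the gene alone to 2 decimals. Reads from the shared runs cannot be assigned to gene or copy.

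Hspa8 was also set against other HSP70 genes in each library, among them Hspa9 (mortalin, in mitochondria) and Hspa5 (BiP, in the endoplasmic reticulum). The ratio of Hspa8 to Hspa9 CPM was 0.303 and 0.297 at 24 h, against 0.704 and 0.497 at 0 h. The ratio of Hspa8 to Hspa5 was 1.24 and 1.17 at 24 h, against 2.22 and 1.47 at 0 h. The ratio of Hspa8 to Hspa4, an HSP110-type exchange factor for HSP70, was 0.378 and 0.372 at 24 h, against 0.77 and 0.514 at 0 h. All 3 ratios were lower in both 24 h libraries than in either 0 h library. They share Hspa8 as the numerator, so they largely restate its fall. With 2 libraries a group the smallest 2-sided exact permutation p is 0.333, so the ratios are descriptions.

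The stress-inducible HSP70 genes were barely detected in either group. Hspa1a had 31 and 42 counts at 24 h, against 24 and 35 counts at 0 h, and Hspa1b had 71 and 73 counts at 24 h, against 103 and 75 counts at 0 h. The groups overlapped for both, and neither gene passed the test (log2 fold changes 0.35 and -0.26, edgeR adjusted p = 0.604 and 0.55). The 2 genes share 58.8 to 62.3% of their 50-base runs with each other, so a read can belong to either. Their levels are uncertain one by one. How reads from shared runs were counted is not stated, so their sum is uncertain too. Together with the other copies they had 2.234 and 2.735 CPM at 24 h, against 2.609 and 2.407 CPM at 0 h, which overlap. Hspa1a and Hspa1b together came to 0.498 and 0.598% of the Hspa8 level in CPM at 24 h, against 0.302 and 0.348% at 0 h. Since the groups overlapped for both genes, this higher share restates the fall of Hspa8.

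The other HSP70 genes did not pass the test. Hspa2, best known from the male germ line, had 12.66 and 11.86 CPM at 24 h, against 18.86 and 15.23 CPM at 0 h, without overlap (log2 fold change -0.48, edgeR adjusted p = 0.118). Hsph1 (HSP105), another HSP110-type exchange factor, had 192.5 and 190.0 CPM at 24 h, against 223.2 and 236.7 CPM at 0 h, again without overlap (log2 fold change -0.27, SE 0.10, edgeR adjusted p = 0.146). Hspa5 had 333.4 and 351.3 CPM at 24 h, against 374.6 and 443.8 CPM at 0 h (log2 fold change -0.26, edgeR adjusted p = 0.208). For all 3 the 24 h libraries were the lower ones. Hspa4 had the highest level per kilobase of merged exons among these 9 HSP70 genes (Hspa9 is counted with the mitochondrial ones). Per kilobase of the principal transcript Hspa8 was above Hspa4 at 0 h (309.4 against 253.8 CPM) and below it at 24 h (171.9 against 237.5 CPM). Hspa4 had 1091 and 1103 CPM at 24 h, against 1079 and 1266 CPM at 0 h, and the groups overlapped. Hspa4l, its rarer paralog, had 5.957 and 6.197 CPM at 24 h, against 4.902 and 6.419 CPM at 0 h, with overlap. Hspa13, of microsomes, had 18.8 and 18.16 CPM at 24 h, against 18.96 and 20.45 CPM at 0 h, close together but without overlap. Over the 9 HSP70 genes 0 rose and 1 fell, beside 4.15% higher and 2.65% lower of all genes tested. The median log2 fold change of the 9 was -0.257. Of the 9, 5 were lower once GC and length trends were removed, beside 18.8% of all genes tested. The median of the 9 was -0.208 without 0 h A and -0.134 without 0 h B.

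Of the J-domain genes, Dnajb6 fell and 4 did not pass. Dnajb6 (ENSMUSG00000029131, chr5:29735688-29818134, GRCm38) had 23.23 and 23.4 CPM at 24 h, against 44.44 and 34.28 CPM at 0 h. As for Hspa8, the 24 h libraries were nearly equal and 0 h A was the higher of the 0 h pair. Means were 23.31 ± 0.124 CPM at 24 h and 39.36 ± 7.18 CPM at 0 h (SD, n = 2 each), with a log2 fold change of -0.76 (SE 0.15, edgeR adjusted p = 0.0329). Leaving out a 24 h library kept the size at -0.77 but lost the call (edgeR adjusted p = 0.16 without 24 h A and 0.174 without 24 h B). The value was -0.56 without 0 h A and -0.93 without 0 h B, and the gene passed in the 12 alternatives other than those without a 24 h library. By the same rule Dnajb6 has 6 copies, 5 of them pseudogenes, which had 3.06 and 3.82 CPM at 24 h, against 1.23 and 1.73 CPM at 0 h, the opposite order to Dnajb6 itself. The 1 that is no pseudogene, the protein-coding gene Cyyr1, held most of these counts (379 over the 4 libraries) and shares only 5.33% of the Dnajb6 runs. With all 6 added, the log2 ratio of mean CPM was -0.61.

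Of the 5 J-domain genes, 4 were lower once GC and length trends were removed, beside 18.8% of all genes tested. Their median log2 fold change was -0.204 without 0 h A and -0.029 without 0 h B. The remaining J-domain genes had smaller fitted changes than Dnajb6. Dnajb1 (HSP40), the inducible partner of cytosolic HSP70, had 55.39 and 54.73 CPM at 24 h, against 69.82 and 61.44 CPM at 0 h, without overlap (log2 fold change -0.25, edgeR adjusted p = 0.211). Dnajc7, which binds both HSP70 and HSP90, had 380.1 and 405.8 CPM at 24 h, against 399.8 and 452.2 CPM at 0 h. Dnaja2, a J-domain protein that brings clients to HSP70, had 275.8 and 282.3 CPM at 24 h, against 273.1 and 299.8 CPM at 0 h. The groups of Dnajc7 and Dnaja2 overlapped. Dnaja1, a close relative of Dnaja2, had 40.94 and 42.55 CPM at 24 h, against 37.56 and 54.83 CPM at 0 h. Its log2 fold change was -0.40 without 0 h A and 0.15 without 0 h B, so the 0 h libraries gave opposite directions. Copies of Dnaja1 held 40.2 and 39.6% of the sum of gene and copies at 24 h, against 42.2 and 38.1% at 0 h, so its level is uncertain. The ratio of Dnajb6 to Dnaja2 CPM was 0.0842 and 0.0829 at 24 h, against 0.163 and 0.114 at 0 h, which restates the fall of Dnajb6. Hspb1 (HSP25), the small heat shock protein that holds unfolded proteins without ATP, had 55.95 and 54.15 CPM at 24 h, against 71.08 and 67.55 CPM at 0 h, without overlap (log2 fold change -0.33, SE 0.10, edgeR adjusted p = 0.107). Its copies held 41.7 and 39.3% of the sum of gene and copies at 24 h, against 44.5 and 38.3% at 0 h, so its level is uncertain. With the GC and length trend removed the log2 fold change of Hspb1 was -0.03.

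**Figure D4:**
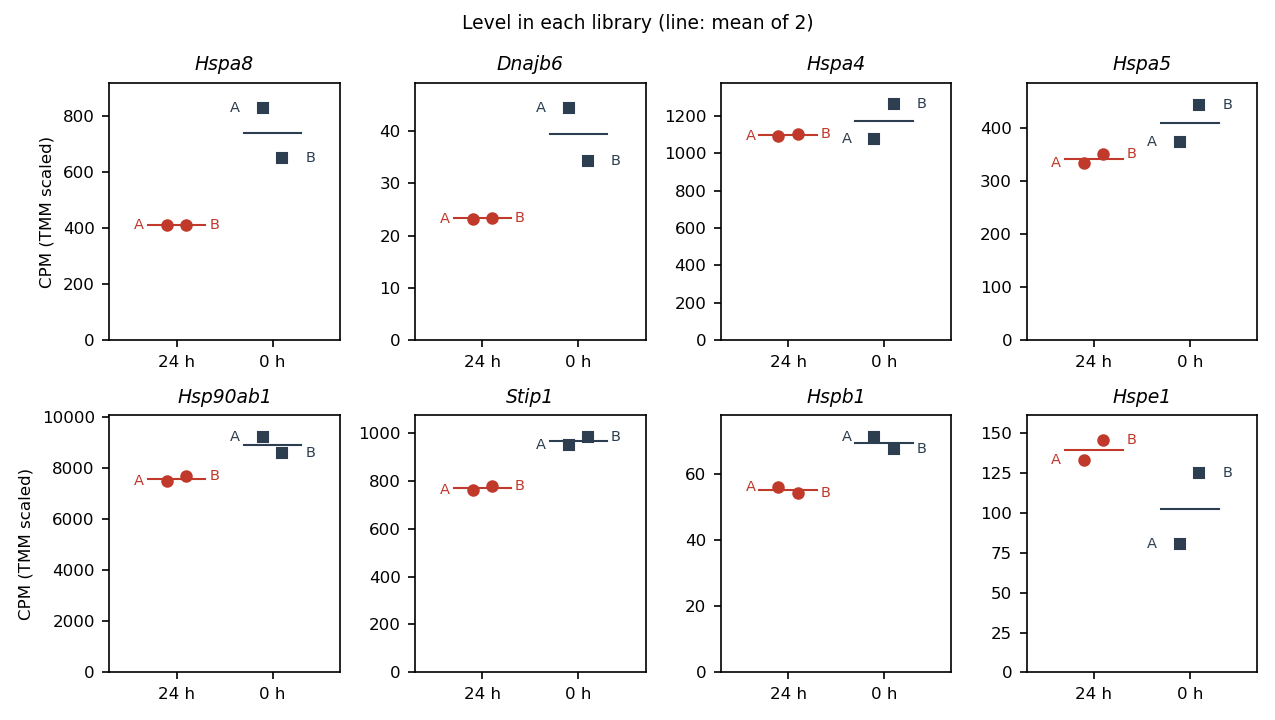
CPM (TMM scaled) of 8 chaperone genes in each library, with 24 h A and B left of 0 h A and B and a line at each group's mean. Both 24 h points lie below both 0 h points for Hspa8, Dnajb6, Hspa5, Hsp90ab1, Stip1 and Hspb1, above them for Hspe1, and between them for Hspa4.

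None of the 3 HSP90 genes passed the test with all 4 libraries (median log2 fold change -0.136). All 3 were lower with the GC and length trend removed (median -0.306), beside 18.8% of all genes tested. The median of the 3 was -0.184 without 0 h A and -0.008 without 0 h B. Hsp90ab1 had 7498 and 7689 CPM at 24 h, against 9245 and 8618 CPM at 0 h. Both 24 h libraries were below both 0 h libraries, with a log2 fold change of -0.23 (SE 0.09, edgeR adjusted p = 0.148). The value was -0.18 without 0 h A and -0.29 without 0 h B. Hsp90aa1, the inducible cytosolic form, had 1190 and 1218 CPM at 24 h, against 1087 and 1345 CPM at 0 h, so that the 24 h values lay between the 0 h values. Its log2 fold change was -0.16 without 0 h A (edgeR adjusted p = 0.000301) and 0.14 without 0 h B (edgeR adjusted p = 0.00105), past the test in opposite directions. The ratio of Hsp90aa1 to Hsp90ab1 CPM was 0.159 and 0.158 at 24 h, against 0.118 and 0.156 at 0 h, so 0 h A alone stood apart. Copies of Hsp90aa1 held 20.2 and 20.5% of the sum of gene and copies at 24 h, against 20.5 and 20.3% at 0 h. Hsp90b1 (GRP94), the form of the endoplasmic reticulum, had 913.4 and 965.8 CPM at 24 h, against 942.0 and 1122 CPM at 0 h. Its groups overlapped.

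The BAG and HSP90 co-chaperone genes held 0 called changes among 5, beside 6.8% of all genes tested. Once GC and length trends were removed 1 was lower, beside 18.8% of all genes tested. Their median log2 fold change was -0.194, against -0.021 without 0 h A and -0.126 without 0 h B. Stip1 (HOP), which links HSP70 to HSP90, had 762.2 and 777.3 CPM at 24 h, against 948.1 and 982.2 CPM at 0 h. Its groups lay well apart relative to the spread within each, with a log2 fold change of -0.33 (SE 0.09, edgeR adjusted p = 0.0787), and leaving out any 1 library kept it between -0.35 and -0.30. Bag1, an exchange factor for HSP70, had 124.3 and 134.4 CPM at 24 h, against 140.8 and 156.9 CPM at 0 h (log2 fold change -0.20, edgeR adjusted p = 0.284). Bag3, which takes clients to autophagy, had 70.52 and 73.3 CPM at 24 h, against 91.58 and 72.88 CPM at 0 h. Its groups overlapped because 0 h B was close to the 24 h libraries. Bag2, which inhibits the ubiquitin ligase CHIP, had 6.883 and 7.864 CPM at 24 h, against 6.444 and 6.44 CPM at 0 h (log2 fold change 0.19, edgeR adjusted p = 0.477). Ahsa1 (AHA1), the activator of the HSP90 ATPase, had 388.5 and 396.2 CPM at 24 h, against 383.4 and 375.3 CPM at 0 h (log2 fold change 0.05, edgeR adjusted p = 0.77). Bag2 and Ahsa1 lay higher in both 24 h libraries than in either 0 h library.

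The mitochondrial chaperones were the only one of the 8 groups with a positive median log2 fold change, 0.071 over 4 genes, and none of them passed the test in the fit to all 4 libraries with no replicate term. With the GC and length trend removed that median was -0.021 and 0 passed, beside 10.3% of all genes higher and 18.8% lower. The median of the 4 was 0.075 without 0 h A and 0.202 without 0 h B. Hspe1 (HSP10), the lid of the mitochondrial chaperonin, had 133.1 and 146.2 CPM at 24 h, against 80.41 and 125.2 CPM at 0 h. Both 24 h libraries were above both 0 h libraries, and the log2 fold change was 0.44 (SE 0.20, edgeR adjusted p = 0.212). It was 0.16 without 0 h A (edgeR adjusted p = 0.00979) and 0.79 without 0 h B (edgeR adjusted p = 6.14e-46). Hspd1 (HSP60), the barrel that Hspe1 closes, had 343.5 and 355.2 CPM at 24 h, against 305.3 and 392.1 CPM at 0 h, with overlap. Its log2 fold change was -0.17 without 0 h A and 0.19 without 0 h B, past the test in both, and 44.8% of its 50-base runs occur in other genes. The ratio of Hspe1 to Hspd1 CPM was 0.387 and 0.412 at 24 h, against 0.263 and 0.319 at 0 h, higher in both 24 h libraries. The exons of the 2 genes overlap by 112 bases on opposite strands. Hspa9, the mitochondrial HSP70 that pulls proteins through the import pore, had 1360 and 1382 CPM at 24 h, against 1179 and 1310 CPM at 0 h (log2 fold change 0.14, edgeR adjusted p = 0.394), again higher in both 24 h libraries. Trap1, the mitochondrial HSP90, had 269.0 and 275.1 CPM at 24 h, against 288.4 and 256.0 CPM at 0 h, with overlap.

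The fitted changes of the 8 CCT subunit genes lay in a narrow range, and none passed the test with all 4 libraries. Once GC and length trends were removed 7 of the 8 were lower (median -0.223), beside 18.8% of all genes tested. The median of the 8 was -0.154 without 0 h A and -0.07 without 0 h B. Each ring of the complex holds 1 copy of every subunit. Their log2 fold changes ran from -0.25 for Cct5 to 0.08 for Cct4, with a median of -0.104 and an SD of 0.104 over the 8. Cct5 had 629.4 and 628.8 CPM at 24 h, against 786.4 and 706.0 CPM at 0 h (log2 fold change -0.25, SE 0.10, edgeR adjusted p = 0.173). Cct7 had 559.6 and 561.4 CPM at 24 h, against 678.5 and 617.5 CPM at 0 h (log2 fold change -0.21, edgeR adjusted p = 0.223). Cct4 had 774.0 and 785.8 CPM at 24 h, against 714.0 and 763.4 CPM at 0 h (log2 fold change 0.08, edgeR adjusted p = 0.627). For 5 of the 8 both 24 h libraries were below both 0 h libraries, and Cct4 alone had both above. Over all genes tested those shares were 29.5% below and 29.3% above. Cct2, the highest subunit per length, had 869.1 and 886.6 CPM at 24 h, against 887.8 and 992.9 CPM at 0 h, and Cct8 had 709.6 and 708.4 CPM at 24 h, against 767.7 and 797.6 CPM at 0 h. Cct3 had 639.9 and 660.7 CPM at 24 h, against 712.5 and 690.7 CPM at 0 h. In each of Cct2, Cct3 and Cct8 the 24 h libraries were the lower ones. Cct6a had 843.0 and 865.1 CPM at 24 h, against 837.5 and 976.4 CPM at 0 h, and Tcp1 (CCT1) had 623.6 and 638.4 CPM at 24 h, against 603.1 and 665.9 CPM at 0 h. The groups of Cct6a and Tcp1 overlapped.

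Levels of the CCT subunits depended on the length used. The ratio of the highest to the lowest subunit in CPM was 1.55 and 1.58 at 24 h, against 1.47 and 1.61 at 0 h. Per kilobase of merged exons it was 4.12 and 4.19 at 24 h, against 3.47 and 4.26 at 0 h. Per kilobase of the principal transcript, which was annotated for 7 of the 8, it was 1.94 and 1.97 at 24 h, against 1.84 and 2.0 at 0 h. The order of subunits per length is therefore uncertain, while Hsp90ab1 was first of the chaperone genes with either length. More than 10% of the 50-base runs were shared with other genes for 11 of the 37. Exons of 10 chaperone genes overlap another expressed gene, among them Cct6a, Cct7, Cct8, Tcp1, Dnaja1, Dnajc7, Hsp90b1 and Trap1. Whether counting used strand is not stated in the labels, so some of their reads may belong to the neighbour.

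**Figure D5:**
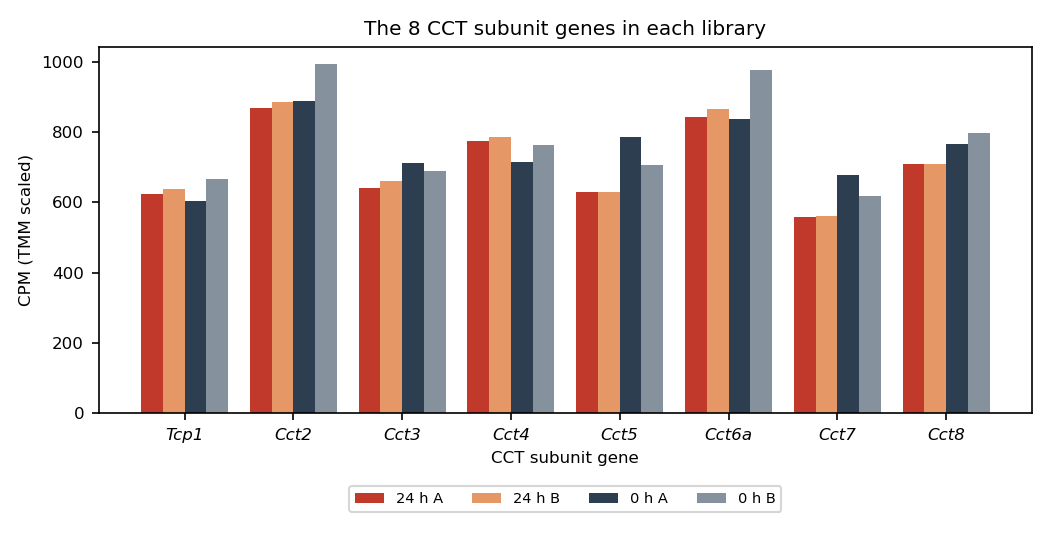
CPM (TMM scaled) of the 8 CCT subunit genes in each library, 24 h A and B left of 0 h A and B. The bars of all 8 stay between 559.6 and 992.9 CPM, and the 24 h bars are the lower pair for Cct2, Cct3, Cct5, Cct7 and Cct8.

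Actin and tubulin, the main clients of CCT, were set beside it. Of 11 actin and tubulin genes 0 rose and 4 fell, beside 4.15% higher and 2.65% lower of all genes tested. Their median log2 fold change was -0.491. Tubb3 had 8.634 and 9.104 CPM at 24 h, against 24.67 and 16.38 CPM at 0 h (log2 fold change -1.21, edgeR adjusted p = 0.0218). Tuba1a had 26.79 and 27.2 CPM at 24 h, against 47.68 and 40.86 CPM at 0 h (log2 fold change -0.71, edgeR adjusted p = 0.0236). Tubb2b had 157.3 and 155.4 CPM at 24 h, against 241.2 and 206.7 CPM at 0 h (log2 fold change -0.52, edgeR adjusted p = 0.0407). In all 3 the 24 h libraries were below both 0 h libraries. Actb, named because it is the 4th of these calls and outside the rule for named genes, had 2117 and 2111 CPM at 24 h, against 3276 and 2724 CPM at 0 h (log2 fold change -0.50, edgeR adjusted p = 0.0428). Tubulin genes are close paralogs, so their reads can be shared. With each library left out in turn, the median of the 11 ranged from -0.528 (without 0 h B) to -0.306 (without 0 h A). That the clients differed from the CCT subunits was not tested.

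Other genes of protein folding were read from 8 lists of 120 genes, of which 115 were tested, 1 rose and 0 fell. Of all genes tested, 4.15% were called higher and 2.65% lower. The median log2 fold change over the 8 lists was -0.076. The gene that rose was Hspa12a, a distant HSP70 relative, with 10.83 and 11.86 CPM at 24 h, against 6.721 and 6.687 CPM at 0 h (log2 fold change 0.76, SE 0.15, edgeR adjusted p = 0.0309). It was 1 of 8 tested genes of other HSP70 and nucleotide exchange factors, whose median was -0.014. Among 19 further HSP90 co-chaperones 0 passed (median -0.19), and the lowest p belonged to Fkbp4, an immunophilin of steroid receptor complexes. Fkbp4 had 722.7 and 702.3 CPM at 24 h, against 1164 and 900.1 CPM at 0 h (log2 fold change -0.53, edgeR adjusted p = 0.0606). Among 20 genes of folding in the endoplasmic reticulum 0 passed (median -0.166). Of the 20, 9 had an unadjusted p under 0.05, all lower, beside 12.6% of all genes lower and 13.2% higher at that p. Their lowest p was that of Pdia6, a disulfide isomerase, with 267.3 and 263.5 CPM at 24 h, against 375.6 and 337.7 CPM at 0 h (log2 fold change -0.43, edgeR adjusted p = 0.0529).

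None of the remaining 5 lists held a called gene, beside 6.8% of all genes tested. The median was 0.079 over 30 further J-domain genes, where Dnajc16 had the lowest p (log2 fold change -0.51, edgeR adjusted p = 0.0772). It was -0.125 over 14 genes of mitochondrial proteostasis, led by the protease gene Htra2 (log2 fold change -0.54, edgeR adjusted p = 0.0893), whose exons overlap Aup1. It was -0.109 over 6 tested small heat shock protein genes, led by Hspb6 (log2 fold change -0.35, edgeR adjusted p = 0.138). The 16 genes of prefoldin and CCT partners had a median of -0.037, and their lowest p was that of the tubulin cofactor gene Tbce (log2 fold change 0.35, edgeR adjusted p = 0.129). The 2 further heat shock factor genes Hsf4 and Hsf5 had a median of -0.348, and Hsf4 had 0.6038 and 0.5342 CPM at 24 h, against 1.048 and 0.5144 CPM at 0 h.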

How the data were processed

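The labels' protocols name a stranded mRNA kit and single reads of 50 nt. The authors deposited raw read counts for each Ensembl gene. The submitters' processing notes name TopHat2, HTSeq, DESeq and mm10, with neither versions nor roles. The strand setting and the annotation release were not given in the sources used here. The members and lists were chosen with earlier results of these data known.

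Symbols, coordinates and lengths came from GENCODE M21 on GRCm38. No symbol was found for 563 identifiers (0.107% of counts). Genes were kept with filterByExpr (minimum count 10, minimum total 15), leaving 18005, and all 37 chaperone genes passed. Libraries were scaled by TMM. The main test was the quasi-likelihood test of edgeR 4.0.16 (legacy=TRUE, 2-sided, R 4.3.3), adjusted by Benjamini-Hochberg over all genes tested at a threshold of 0.05, with no term for the letters A and B. The labels do not say that a letter marks a shared clone or day. Each group had 2 libraries, so the spread was pooled over genes, and p-values cover only the spread between these libraries. Levels per length are TMM-scaled CPM per kilobase of merged exons. A count of 0 allows up to 0.0572 to 0.0652 CPM (the floor of 3 counts, for counting error only). Promoter windows came from RefSeq (GRCm38.p6).

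All members are accounted for. From each other list up to 3 called genes were named in order of p, or the gene of lowest p where none was called. Alternatives were scaling by library size alone, by upper quartile or by size factors of DESeq2 1.42.0, other filters, the DESeq2 Wald test, limma voom (limma 3.58.1), the replicate letter as a block, removal of the GC and length trend, and each library left out. The use of principal transcript lengths was chosen after seeing the data. Plots used matplotlib 3.10.9.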

Additional observations from a re-analysis of the deposited data

How the results depend on the processing

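Hspa8 was lower and past the test in all 14 alternatives, and Dnajb6 was lower in all 14 and past the test in 12. The count of chaperone genes called lower was 2 with all 4 libraries, 4 with no filter, 21 with the GC and length trend removed, and 1 to 21 with each library left out in turn. The count called higher, 0 with all 4 libraries, was 0 to 6 with each library left out. Over all genes the count of calls was 1225, against 2589 with no filter, 1994 by the DESeq2 Wald test, 5234 with the GC and length trend removed, and 506 to 9416 with each library left out. The median log2 fold change of the chaperone genes was -0.205 with the trend removed (that of all genes was then -0.072), and -0.161 to -0.041 with each library left out. The cause of these shifts was not tested.

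The letters A and B are shared by the groups, but no label says that they pair libraries. Deviations from the group means correlated at 0.053 between 24 h A and 0 h A. With the letter as a replicate block, 3 chaperone genes were lower (Hspa8, Dnajb6 and Hspa2), 1 was higher (Hspe1, edgeR adjusted p = 0.00704), and 3253 genes were called in all (8.86% of genes lower and 9.21% higher). With the block and the trend removed, 24 were lower and 1 higher of 6484 calls in all (23.2% of genes lower and 12.8% higher), and the median was -0.203.

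Some small log2 fold changes turned direction. With upper quartile scaling and with library size alone, Dnaja2 was 0.0045 and 0.018, Hsp90aa1 0.026 and 0.0398, Tcp1 0.0342 and 0.0478, and Trap1 0.0441 and 0.0571. With a filter of at least 1 CPM in 2 libraries, which left out Hspa1a, Tcp1 was 0.0052 and Trap1 0.0127. Trap1 was also 0.0013 by limma voom and 0.0015 with the replicate block. With no filter Hspd1 was -0.0168. With the trend removed, alone and with the block, Ahsa1 was -0.0565 and -0.0556, Cct4 -0.0636 and -0.0633, Hsf2 -0.1826 and -0.1825, Hspa4l -0.1187 and -0.1172, and Hspd1 -0.1227 and -0.1179. Leaving out each library gave a range of Cct6a -0.1944 to 0.0241, Dnaja1 -0.3951 to 0.148, Dnaja2 -0.1047 to 0.0268, Hsf2 -0.1207 to 0.1721, Hsp90aa1 -0.1614 to 0.1429, Hspa4 -0.208 to 0.0196, Hspa4l -0.0807 to 0.3054, Hspd1 -0.1679 to 0.1902, Tcp1 -0.079 to 0.0612 and Trap1 -0.0885 to 0.0862.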
